A study of Mus musculus with 6 samples.

Results

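The genes described here are 43 genes of peroxisome biogenesis and peroxisomal metabolism, chosen by name from the 54446 genes that the files list. The list was drawn up with earlier results of these data known. They comprise 13 peroxins, 16 oxidation enzymes of the peroxisomal matrix and 14 other members, namely transporters, catalase, enzymes of glyoxylate, acyl-CoA and ether lipid metabolism and a protease. Livers of 3 WT and 3 Fmo5-/- mice were sequenced as RNA, each mouse giving 1 library of single reads. All were 32-week-old males, with C57BL/6 as the strain background in the labels and C57BL/6J in the methods of the study, and both groups received a standard chow diet with free access to food. The Fmo5-/- mice lack a functional Fmo5, the gene of flavin-containing monooxygenase 5, and the RNA is that of whole liver.

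Peroxisomes are organelles bounded by a single membrane that import their matrix proteins fully folded from the cytosol. Peroxins build the membrane, recognise the import signals, carry the cargo across and divide the organelle. In liver, peroxisomes shorten very-long-chain and branched-chain fatty acids and the side chains of bile acid precursors, oxidise glycolate and some amino acids, and break down the hydrogen peroxide that these oxidases release. In rodents, many of these genes are induced by the fatty acid-activated receptor PPARA, encoded by Ppara.

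Most matrix enzymes carry either of a pair of import signals, and the coding sequences of the members hold both kinds. The first, PTS1, is a C-terminal tripeptide of a small residue, a basic residue and a leucine or methionine, recognised by the receptor PEX5. In the GENCODE vM21 annotation of GRCm38, it stood at the end of 14 members and of none of the 13 peroxins. The last 24 coding bases of 4 of these members are shown, as examples of enzymes that are named below, with the tripeptide codons in capitals and the stop codon last.
Ehhadh (chr16:21762084-21762107, minus strand): ggaccccatagcAGCAAACTGtga
Lonp2 (chr8:86716448-86716471, plus strand): ggtctcattgacAGCAAACTAtag
Scp2 (chr4:108044750-108044773, minus strand): cagccgggcaaaGCTAAGCTGtga
Decr2 (chr17:26082876-26082899, minus strand): gaatccttctctGCTAAGCTGtag

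The second signal, PTS2, is a stretch of 9 residues near the N-terminus that is recognised by PEX7. Its pattern was found in 4 members, Acaa1a, Acaa1b, Phyh and Agps, beginning at codon 3, 3, 9 and 50. The 27 coding bases of each are shown, since they set these enzymes apart from the others. Codons of the first and last pair of residues are in capitals, and the pattern searched also limited residues between these pairs.
Acaa1a (chr9:119341521-119341547, plus strand): CGGCTGcaggtagtgctgggcCACCTG
Acaa1b (chr9:119156962-119156988, minus strand): CGGCTGcaggtagtgctgggtCACCTG
Phyh (chr2:4919094-4919120, plus strand): CGGCTGcaggtccttctgggaCACCTC
Agps (chr2:75832360-75832386, plus strand): CGGCTGcgggttctgtcgggcCATCTG

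The libraries held between 44886286 and 52338675 counts on genes, which were 66.2% to 69.2% of the reads. Reads mapping to several places were 11.8% to 13.1% in the WT mice and 10.4% to 11.5% in the Fmo5-/- mice. Unmapped reads were 9.72% to 10.1% and 9.10% to 9.20%. Reads on no gene were 6.86% to 7.02% in the WT mice and 6.96%, 8.63% and 8.28% in the Fmo5-/- mice. Genes over 100 counts numbered 10954 to 11224 and 11351 to 11745. The part of these measures in the results was not tested. Values are TMM-normalized counts unless stated. Log2 fold changes are Fmo5-/- over WT from edgeR, with an SE derived from the F statistic of its test. A gene was called changed where the edgeR adjusted p was under 0.05 and its normalized counts averaged 500 or more. Fmo5 itself had 39808, 37405 and 30240 normalized counts in the WT mice and 1071, 1102 and 1194 in the Fmo5-/- mice, a log2 fold change of -5.00 ± 0.14 with an edgeR adjusted p of 2.79e-07. The summed markers of hepatocytes, of which 7 of 8 were in the files, lay at 110100 to 144600 CPM (counts per 1000000 of the TMM-scaled library size) in the WT mice and 114000 to 139400 in the Fmo5-/- mice. Those of Kupffer cells lay at 151 to 179 CPM in the WT mice and 239 to 443 CPM in the Fmo5-/- mice, with all 6 markers higher in the mean and 1 of them, Clec4f, past the threshold in edgeR and 4, Clec4f, Vsig4, Marco and Cd5l, in DESeq2. The sums for T cells (2.03 to 4.17 against 4.93 to 20.5 CPM) and neutrophils (0.775 to 2.32 against 2.37 to 5.08 CPM) were also higher in every Fmo5-/- mouse. Those for adipocytes (6.20 to 12.5 against 3.04 to 3.95 CPM) and kidney tubule (1.67 to 3.12 against 0.916 to 1.35 CPM, with Kap at 0) were lower in every Fmo5-/- mouse. Each of these sums came mostly from 1 gene, the only marker of its list that passed the filter on low counts. These were Cidec for adipocytes (mean 8.12 against 3.26 CPM) and Lrp2 for kidney tubule (mean 2.301 against 1.055 CPM). The sums therefore do not show a difference in the content of these cells. Those of the 5 other cell types overlapped between genotypes. The part of these markers in the results below was not tested. In bulk liver, fewer cells of a type and less RNA per cell cannot be told apart.

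Of the 43 members, 41 passed edgeR's filter on low counts and 39 also had a mean of 500 or more, Pex10 and Far1 being below it. The log2 fold change was below 0 for 34 of the 41 tested members and above 0 for 7, with a median of -0.16. Across all 16734 genes tested the median was 0.0058, and across the 7819 genes with a mean of 500 or more it was -0.06.

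At the threshold, edgeR called 1 of the 39 members, Pex11a, lower and 0 higher, where 1.06% of all genes with a mean of 500 or more were called lower and 0.550% higher. This lean of all genes towards lower calls (83 lower, 43 higher) depended on the setting, with 23 lower and 30 higher where genes averaging under 500 were dropped ahead of the fit, and 107 lower and 152 higher without Fmo5-/- replicate 3. At an unadjusted p under 0.05, edgeR placed 15 of the 39 lower, against 17.6% of all such genes, and 0 higher, against 7.62%. With the Wald test of DESeq2, the tool of the study, 9 of the 39 were lower and 0 higher, against 6.77% and 2.77% of all genes. In 21 of the 39, every Fmo5-/- mouse was below every WT mouse, which held for 21.9% of all genes with a mean of 500 or more. In 0 of the 39 was every Fmo5-/- mouse above every WT mouse, against 9.39% of all such genes. A log2 fold change below 0 was found for 33 of the 39, against 64.0%.

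**Figure D1:**
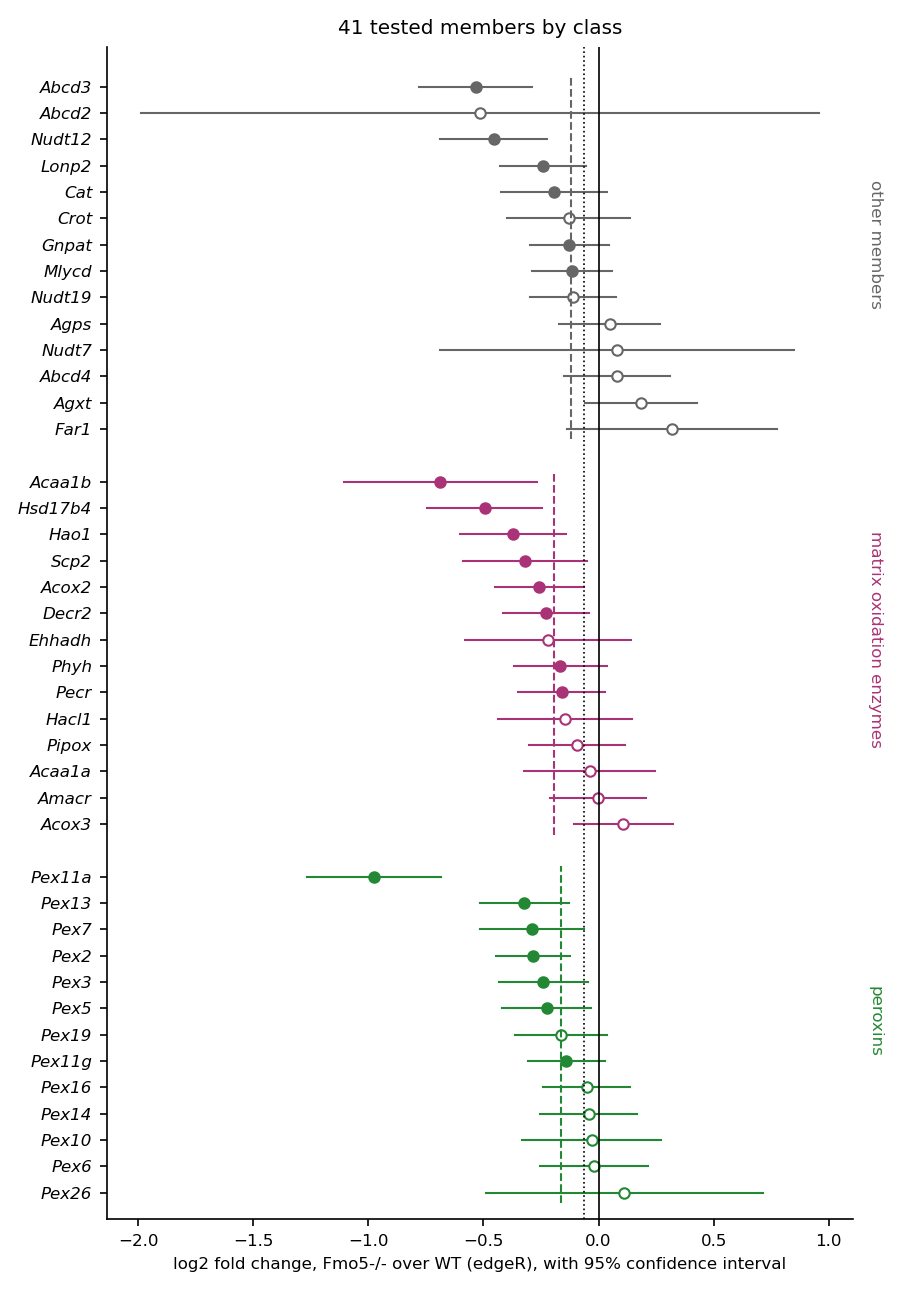
Log2 fold change (Fmo5-/- over WT, horizontal axis) of the 41 tested members, by class, with the 95% confidence interval derived from the edgeR F statistic as bars. Filled points are the 21 members with every Fmo5-/- mouse below every WT mouse, dashed lines are the class medians and the dotted line is the median of all genes with a mean of 500 or more (-0.06); Pex11a lies lowest at -0.97.

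Among the peroxins, the marked difference was in Pex11a (ENSMUSG00000030545.9, chr7:79735957-79743131), which encodes a membrane protein that elongates peroxisomes before they divide. It had 6193, 5321 and 4231 normalized counts in the WT mice and 2630, 2747 and 2633 in the Fmo5-/- mice. The lowest WT mouse was therefore well above the highest Fmo5-/- mouse, and the Fmo5-/- mice differed little among themselves. Pex11a fell by 49.1%, a log2 fold change of -0.97 ± 0.13 (95% confidence interval -1.26 to -0.69), with an adjusted p of 0.0133 in edgeR and 2.95e-09 in DESeq2. Without Fmo5-/- replicate 1 the edgeR adjusted p was 0.0816 at a log2 fold change of -0.97, and with each of the 5 other mice left out Pex11a remained past the threshold, with adjusted p values from 0.00402. Its paralog Pex11g had 1579, 1534 and 1560 in the WT mice and 1353, 1409 and 1482 in the Fmo5-/- mice. These groups did not overlap either, but the log2 fold change was -0.14 ± 0.07, with an edgeR adjusted p of 0.313. A non-coding gene on the other strand covers 41.1% of the exon bases of Pex11g, and reads there were not counted. Other genes also cover 35.0% of the exon bases of Nudt19, 33.3% of Hacl1 and 28.3% of Pex14, and less of some further members.

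The 8 peroxins of matrix import are the receptors, the docking and ubiquitination complexes at the membrane, and the ATPase complex that recycles the receptors. None of the 8 was called by edgeR, which placed 4 of them lower at an unadjusted p under 0.05 (17.6% of all genes), and 2, Pex13 and Pex2, passed the threshold in DESeq2 (6.77% of all genes). Pex13, of the docking complex, had 3260, 3014 and 2742 in the WT mice and 2438, 2301 and 2470 in the Fmo5-/- mice. Its log2 fold change was -0.32 ± 0.09, with an adjusted p of 0.0818 in edgeR and 0.0321 in DESeq2. Pex2, a ubiquitin ligase that marks the receptors for recycling, had 2828, 2950 and 2866 in the WT mice and 2319, 2331 and 2449 in the Fmo5-/- mice. For Pex2 the spread within each genotype was small beside the gap between them, the log2 fold change was -0.28 ± 0.07, and the adjusted p was 0.0755 in edgeR and 0.0240 in DESeq2.

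Both cargo receptors had every Fmo5-/- mouse below every WT mouse, as did 21.9% of all genes with a mean of 500 or more, without passing either threshold. The PTS1 receptor gene Pex5 had 8637, 8029 and 7566 in the WT mice and 7276, 6688 and 6772 in the Fmo5-/- mice, a log2 fold change of -0.22 ± 0.09 with an adjusted p of 0.173 in edgeR and 0.126 in DESeq2. The PTS2 receptor gene Pex7 had 4334, 3849 and 3446 in the WT mice and 3265, 2942 and 3309 in the Fmo5-/- mice, a log2 fold change of -0.29 ± 0.10 with an adjusted p of 0.141 in edgeR and 0.104 in DESeq2. In both genes the WT mouse nearest to the Fmo5-/- mice was WT replicate 3.

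The other 4 import peroxins overlapped between genotypes. The log2 fold changes were -0.04 ± 0.09 for Pex14, the other docking protein, -0.03 ± 0.13 for Pex10, a second ubiquitin ligase, and -0.02 ± 0.10 for Pex6, an ATPase of receptor recycling. Pex26, which anchors that ATPase to the membrane, had 1140, 1855 and 1201 in the WT mice and 1251, 1306 and 1974 in the Fmo5-/- mice. With 1 mouse of each genotype far above the others, its interval ran from -0.49 to 0.71.

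The 3 peroxins that place proteins in the peroxisomal membrane gave no call in either tool, with 1 lower at an unadjusted edgeR p under 0.05 (17.6% of all genes). That gene, Pex3, the membrane anchor of this system, had 1353, 1245 and 1163 in the WT mice and 1112, 1022 and 1052 in the Fmo5-/- mice, without overlap, at -0.24 ± 0.09 and an edgeR adjusted p of 0.150. Pex19, the soluble carrier of membrane proteins, was at -0.16 ± 0.09 and Pex16 at -0.05 ± 0.08, and both overlapped between genotypes.

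Among the matrix oxidation enzymes, 0 of the 14 tested were called by edgeR and 3, Acaa1b, Hsd17b4 and Hao1, passed in DESeq2. At an unadjusted p under 0.05, edgeR placed 6 of the 14 lower and 0 higher. The shares over all genes were 1.06% lower in edgeR, 6.77% lower in DESeq2, and 17.6% lower and 7.62% higher at the unadjusted p. Hsd17b4 (chr18:50128201-50196269) encodes the D-bifunctional protein, which carries out the hydration and dehydrogenation steps for very-long-chain and branched substrates and bile acid precursors. It had 31176, 30339 and 24724 in the WT mice and 21625, 20271 and 19298 in the Fmo5-/- mice. All Fmo5-/- mice lay below all WT mice, the log2 fold change was -0.49 ± 0.11, and the adjusted p was 0.0611 in edgeR and 0.00107 in DESeq2.

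Acaa1b (chr9:119148023-119157093) encodes a peroxisomal thiolase, which releases acetyl-CoA in the last step of beta-oxidation. It had 77858, 57481 and 46433 in the WT mice and 42255, 37050 and 33547 in the Fmo5-/- mice. The WT mice differed widely among themselves, and WT replicate 3 was close to Fmo5-/- replicate 1. The log2 fold change was -0.69 ± 0.18, with an adjusted p of 0.0869 in edgeR and 0.00231 in DESeq2. Acaa1a, the near-identical thiolase gene on the same chromosome, had 9057, 9695 and 7503 in the WT mice and 7562, 9704 and 8290 in the Fmo5-/- mice, at -0.04 ± 0.13. Only reads that map to 1 place were counted, so the split between these copies is uncertain. For the pair summed, the WT mice had 69342 ± 16600 and the Fmo5-/- mice 46135 ± 4026 (SD, n = 3 each), a log2 ratio of means of -0.59. Acaa1b made up 85.6% to 89.6% of the pair in the WT mice and 79.2% to 84.8% in the Fmo5-/- mice.

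The remaining enzymes of beta-oxidation were not called by either tool. Scp2, whose larger product is a thiolase for branched chains and whose smaller product is a sterol carrier, had 144306, 177375 and 138107 in the WT mice and 132349, 115696 and 120921 in the Fmo5-/- mice. Those groups did not overlap, the log2 fold change was -0.32 ± 0.12, and the edgeR adjusted p was 0.168. The log2 fold change of Scp2 was -0.20 without WT replicate 2 and -0.38 without WT replicate 3. Acox2, the oxidase for bile acid precursors and branched chains, had 11410, 10877 and 10891 in the WT mice and 8526, 9685 and 9554 in the Fmo5-/- mice, again without overlap, at -0.26 ± 0.09 and an edgeR adjusted p of 0.133 (0.0585 in DESeq2). Ehhadh, the L-bifunctional protein, had 22002, 16212 and 15145 in the WT mice and 17869, 13686 and 14266 in the Fmo5-/- mice, which overlapped, at -0.22 ± 0.16. The log2 fold change of Ehhadh was -0.03 without WT replicate 1 and -0.35 without Fmo5-/- replicate 1. Acox3, a further branched-chain oxidase, was at 0.11 ± 0.09 and was the only matrix enzyme tested with a value above 0.

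The 5 enzymes of alpha-oxidation and of the auxiliary steps lay between -0.23 and -0.0038, with no call in either tool and 1, Decr2, lower at an unadjusted edgeR p under 0.05, near the 17.6% of all genes. Decr2, a reductase for unsaturated chains, had 9538, 9166 and 8639 in the WT mice and 8155, 7772 and 7427 in the Fmo5-/- mice, at -0.23 ± 0.08 with an edgeR adjusted p of 0.160. Phyh, which starts the alpha-oxidation of phytanic acid, was at -0.17 ± 0.09 and Pecr, an enoyl-CoA reductase, at -0.16 ± 0.08. These 3 genes had every Fmo5-/- mouse below every WT mouse, as did 21.9% of all genes with a mean of 500 or more. Hacl1, the lyase of alpha-oxidation, was at -0.15 ± 0.13, and Amacr, the racemase that prepares branched chains for beta-oxidation, at -0.0038 ± 0.09, and both overlapped.

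Of the 4 oxidases of hydroxy acids and amino acids, Hao1 and Pipox could be tested. Hao1, which encodes glycolate oxidase, had 12861, 15339 and 13758 in the WT mice and 10030, 10546 and 11848 in the Fmo5-/- mice. The groups were apart, at -0.37 ± 0.10, with an adjusted p of 0.0891 in edgeR and 0.0164 in DESeq2. Pipox, the pipecolate and sarcosine oxidase, was at -0.09 ± 0.09 and overlapped. Hao2, a hydroxy acid oxidase, had only 32, 7 and 7 raw counts in the WT mice and 7, 15 and 4 in the Fmo5-/- mice. Dao, the D-amino acid oxidase, had 0, 0 and 1 raw counts in the WT mice and 0, 0 and 1 in the Fmo5-/- mice. Both were too low for a comparison at this depth, at which a count of 0 allows up to 3 counts.

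**Figure D2:**
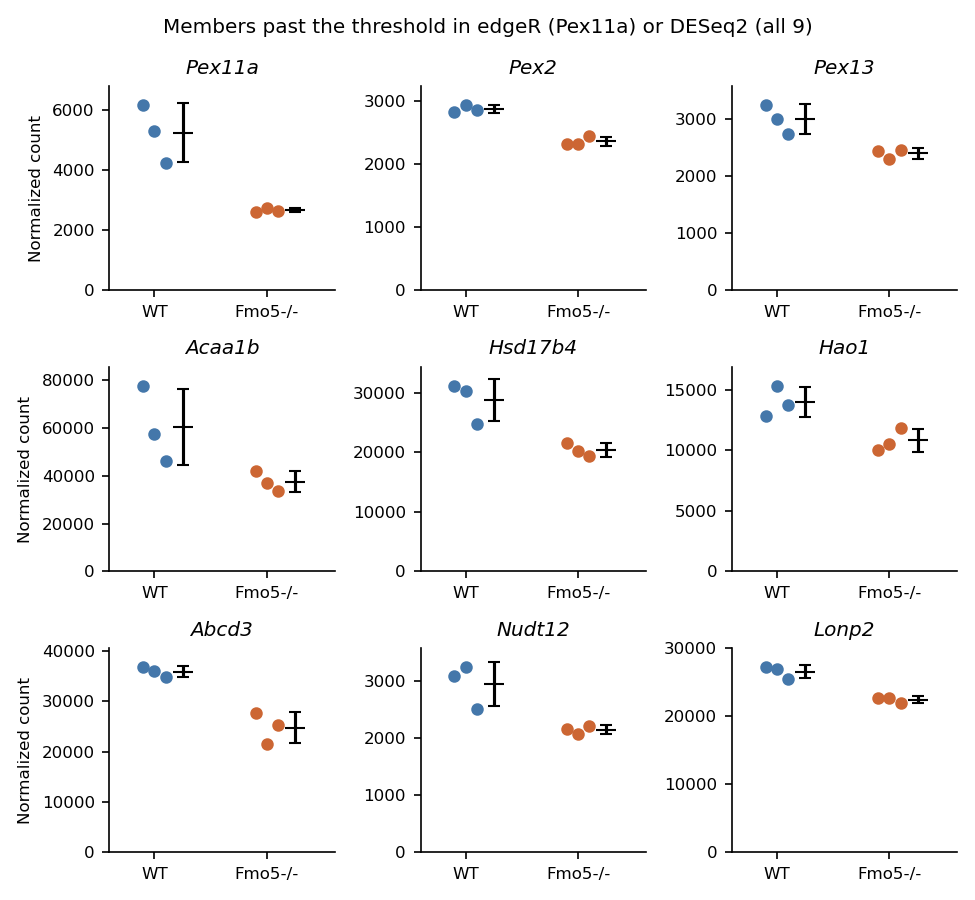
Normalized count (vertical axis, from 0) of 9 members in each WT and Fmo5-/- mouse, with mean and SD (n = 3) as bars beside the points. Pex11a passed the threshold in edgeR and all 9 passed in DESeq2; in each panel the 3 Fmo5-/- points lie below the 3 WT points.

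Of the 14 other members, 0 were called by edgeR and 3, Abcd3, Nudt12 and Lonp2, passed in DESeq2. At an unadjusted p under 0.05, edgeR placed 3 of the 13 with a mean of 500 or more lower, near the 17.6% of all genes, and 0 higher, against 7.62%. The DESeq2 share over all genes was 6.77%. Abcd3 (chr3:121758774-121815302) encodes the main ABC transporter of the liver peroxisome membrane, which takes up branched-chain acyl-CoA and bile acid precursors. It had 36873, 35964 and 34743 in the WT mice and 27624, 21444 and 25225 in the Fmo5-/- mice. Every WT mouse was well above every Fmo5-/- mouse, the log2 fold change was -0.53 ± 0.11, and the adjusted p was 0.0523 in edgeR, just outside the threshold, and 2.60e-04 in DESeq2. With RLE factors in place of TMM, the edgeR adjusted p of Abcd3 was 0.0479. Its relative Abcd2, a transporter of very-long-chain acyl-CoA, had 1726, 397 and 996 in the WT mice and 932, 658 and 594 in the Fmo5-/- mice. The spread between WT mice left an interval from -1.99 to 0.96 for Abcd2. Abcd4, a family member that acts in lysosomes, was at 0.08 ± 0.10.

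Nudt12, an NADH-cleaving hydrolase of peroxisomes, had 3085, 3258 and 2514 in the WT mice and 2171, 2071 and 2219 in the Fmo5-/- mice. Its log2 fold change was -0.46 ± 0.10, with an adjusted p of 0.0633 in edgeR and 0.00586 in DESeq2. The CoA-cleaving hydrolases differed from it in that they overlapped between genotypes, Nudt19 at -0.11 ± 0.08 and Nudt7 at 0.08 ± 0.32. Nudt7 ranged from 16369 to 34967 within the WT mice. Lonp2, the protease that degrades unfolded matrix proteins, had 27314, 26941 and 25440 in the WT mice and 22704, 22756 and 21947 in the Fmo5-/- mice, at -0.24 ± 0.08 with an adjusted p of 0.138 in edgeR and 0.0415 in DESeq2.

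Catalase, which breaks down hydrogen peroxide, was the most abundant member per length. Cat had 145267, 148492 and 144335 in the WT mice and 139670, 113930 and 129229 in the Fmo5-/- mice. The WT mice were nearly alike, the Fmo5-/- mice were all lower and more spread, and the log2 fold change was -0.19 ± 0.10 with an edgeR adjusted p of 0.311. Agxt, which detoxifies the glyoxylate formed by glycolate oxidase, had 13045, 12156 and 14110 in the WT mice and 13015, 15880 and 15796 in the Fmo5-/- mice, at 0.19 ± 0.11 with an edgeR adjusted p of 0.355. Thus the glycolate oxidase gene Hao1 and Agxt, which act in sequence, had values of opposite sign, of which that of Hao1 passed in DESeq2 and that of Agxt in neither tool.

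The enzymes that export or release shortened acyl groups, Crot and Mlycd, were at -0.13 ± 0.12 and -0.12 ± 0.08. In Mlycd, malonyl-CoA decarboxylase, every Fmo5-/- mouse was below every WT mouse. For ether lipid synthesis, Gnpat, which starts the pathway, was at -0.13 ± 0.08 without overlap, Agps, the next enzyme, at 0.05 ± 0.10, and Far1, which supplies the fatty alcohol, at 0.32 ± 0.20. Far1 had 149, 146 and 135 in the WT mice and 172, 229 and 135 in the Fmo5-/- mice, below the limit of 500. Its log2 fold change was 0.10 without Fmo5-/- replicate 2 and 0.48 without Fmo5-/- replicate 3.

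The peroxins and the matrix oxidation enzymes were compared as classes, to ask whether the machinery of the organelle and its content differed by like amounts. The median log2 fold change was -0.16 over the 13 peroxins (quartiles -0.28 and -0.04) and -0.19 over the 14 matrix enzymes tested (quartiles -0.30 and -0.11). The other members had a median of -0.12, and all genes with a mean of 500 or more one of -0.06 (quartiles -0.18 and 0.06). The difference between the medians of both classes was 0.03. Within the classes, 7 of the 12 peroxins with a mean of 500 or more and 8 of 14 matrix enzymes had every Fmo5-/- mouse below every WT mouse, and 3 of each passed in DESeq2, where the shares over all genes with a mean of 500 or more were 21.9% and 6.77%. Without Pex11a the peroxins had a median of -0.15.

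In each mouse, the median over a class of the log2 ratio to the WT mean was taken. For the peroxins it was 0.07, 0.0078 and -0.11 in the WT mice and -0.17, -0.21 and -0.18 in the Fmo5-/- mice. For the matrix enzymes it was 0.05, 0.08 and -0.10 in the WT mice and -0.18, -0.21 and -0.17 in the Fmo5-/- mice. Each class was thus lower in all 3 Fmo5-/- mice, and in both WT replicate 3 lay nearest to them. The class difference, peroxins minus matrix enzymes, was 0.02, -0.07 and -0.0039 in the WT mice and 0.01, -0.0003 and -0.0068 in the Fmo5-/- mice. The genotypes overlapped in this difference, and its change was smaller than the spread between mice (SD 0.03). WT replicate 3 was the lowest WT mouse in 27 of the 41 members tested, and in 42.8% of all genes with a mean of 500 or more.

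**Figure D3:**
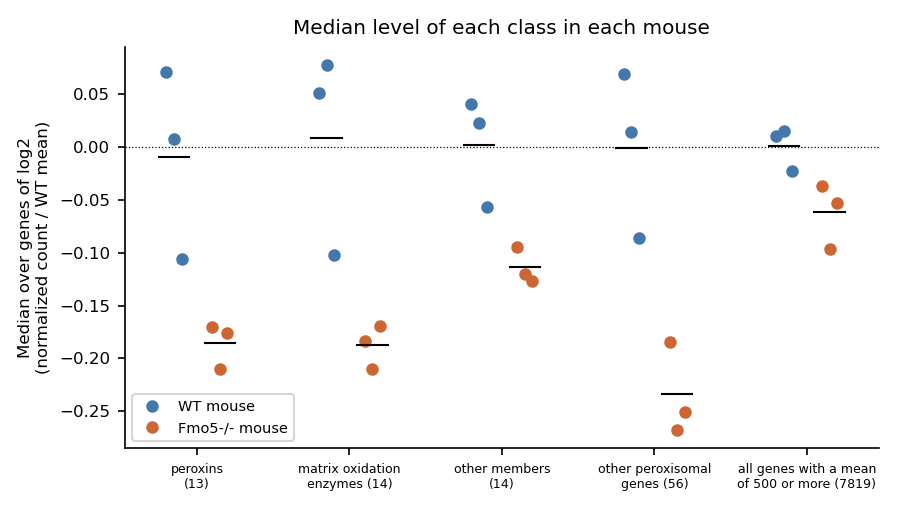
Median over the tested genes of each class of the log2 ratio of the normalized count to the WT mean (vertical axis), in each mouse, with the mean of 3 mice as a line. Peroxins and matrix oxidation enzymes lie between -0.17 and -0.21 in the Fmo5-/- mice, while all genes with a mean of 500 or more lie between -0.10 and -0.04.

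Within the matrix class, the 7 enzymes of beta-oxidation had a median of -0.26 and the 5 of alpha-oxidation and auxiliary steps one of -0.16. The beta-oxidation median was 0.06, 0.09 and -0.21 in the WT mice and -0.20, -0.36 and -0.30 in the Fmo5-/- mice, so that WT replicate 3 and Fmo5-/- replicate 1 overlapped. Within the peroxins, the 8 of matrix import had a median of -0.13 and the 3 of the membrane one of -0.16. Split by import signal, the 12 tested members with a PTS1 ending had a median of -0.14, the 4 with a PTS2 pattern -0.10 and the 12 non-peroxin members with neither -0.17. The last set includes membrane proteins and enzymes such as catalase whose signals differ from the pattern.

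Of the 43 members, 16 are on a list of genes known to be induced through PPARA in mouse liver. Their median was -0.21, against -0.13 for the other 25 members tested, with an SD between mice of 0.08 and 0.04. Every Fmo5-/- mouse was below every WT mouse in 9 of the 16 and in 12 of the 23 others with a mean of 500 or more. The share over all such genes was 21.9%. Of these 16, edgeR called 1, Pex11a, and 4 passed in DESeq2, and of the 25 others (23 with a mean of 500 or more) 0 and 5, where 1.06% of all genes at that mean were lower in edgeR and 6.77% in DESeq2. Ppara itself had 4394, 4623 and 3541 in the WT mice and 3492, 2386 and 3725 in the Fmo5-/- mice, which overlapped, at -0.39 ± 0.17 with an adjusted p of 0.248 in edgeR and 0.144 in DESeq2. Promoter windows of 300 bases (250 before to 50 after the start, RefSeq on GRCm38.p6) were found for 36 members, with 45 windows. The element bound by PPARA and its partner RXR, which is 2 copies of AGGTCA in the same direction with 1 base between them, was searched on both strands with up to 2 mismatches and was in 2 of the 45, those of Acox2 and Cat, or 4.44%, against 3.86% of all 32851 windows. The half-site AGGTCA alone, which lies inside the full element and was searched without mismatches, was in 11.1% of the members' windows and 16.3% of all.

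Per length, the members spanned a wide range in WT liver, given here as RPKM (CPM per kilobase of exon) with the SD of 3 mice. Cat was highest at 1145 ± 17.1, followed by Scp2 at 903 ± 124, Phyh at 807 and Acaa1b at 633 ± 167. Scp2 and Phyh do not differ beyond the SD of Scp2, and below Acaa1b a gap follows to Hsd17b4 at 173 ± 21.1. The peroxins ran from Pex10 at 2.84 ± 0.244 to Pex16 at 59.9 ± 3.69. The matrix enzymes tested ran from Acox3 at 2.80 ± 0.332 to Scp2. Pex11a, at 33.8 ± 6.33 RPKM in the WT mice, was close to Pex6 (34.4 ± 4.37), and had 17.2 RPKM in the Fmo5-/- mice.

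**Figure D4:**
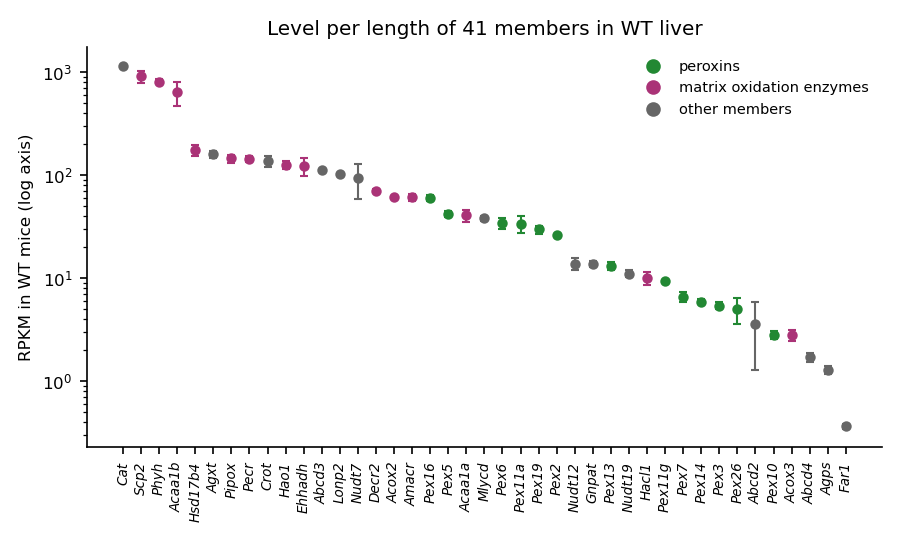
RPKM in WT liver (vertical log axis, mean and SD of 3 mice) of the 41 tested members in order of level, coloured by class. Most matrix oxidation enzymes lie above the peroxins, which run from 2.84 to 59.9.

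A further 61 genes, of peroxisomes or linked to them, were listed beside the members. Some, such as Mospd2 and Acsl1, encode proteins that the paper places in the endoplasmic reticulum. The counts below are thus not of peroxisomal proteins alone. Of the 61 genes, 56 could be tested and 53 had a mean of 500 or more. Of these, 1 was called lower by edgeR and 0 higher, 16 were lower and 0 higher in DESeq2, 26 were lower and 1 higher at an unadjusted edgeR p under 0.05, and the median log2 fold change of the 56 was -0.24. By the same rules, 1.06% of all genes averaging 500 or more were lower in edgeR, 6.77% in DESeq2 and 17.6% at the unadjusted p, at which 7.62% were higher, so that the edgeR count was near the share of all genes. The gene called by edgeR was Mospd2, which encodes a protein of contacts between the endoplasmic reticulum and other organelles, at -0.49 ± 0.09 with an edgeR adjusted p of 0.0379. With each mouse left out in turn, Mospd2 passed in 1 of the 6 fits, with adjusted p values from 0.0307 to 0.133. In the beta-oxidation and acyl-CoA group, the genes that passed in DESeq2 included Slc27a2, Acnat1, Acad11, Baat, Acsl1, Crat, Aldh3a2 and Acnat2, with log2 fold changes from -0.37 to -0.85. Ephx2, Idh1 and Lactb2, with products in the matrix or partly there, also passed in DESeq2, at -0.34, -0.47 and -0.47, as did Acbd5, a tether of peroxisomes, and Tmem135, a membrane protein, at -0.40 and -0.35.

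Pex2, Hao2 and Abcd3 are on chromosome 3, as is Fmo5 (chr3:97628804-97655282). They lie 92053, 1219 and 24103 kb from it.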

How the data were processed

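The members and all gene lists were chosen with earlier results of these data known. Per the paper's methods, the authors clipped adapters, mapped single reads of 75 bases to mm10 with STAR 2.6.0c and compared the genotypes with DESeq2. Raw counts per gene and library were deposited, for both strands and for each strand alone. The deposited signal columns of 1 further table hold these counts divided by 1 factor per library, as was checked, and the unstranded counts entered the tests. The other columns of that table hold the authors' own comparison and were not used.

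Counts were filtered with filterByExpr (minimum count 10), normalized by TMM, and tested in edgeR 4.0.16 (R 4.3.3) by its robust quasi-likelihood method, with Benjamini-Hochberg adjustment over 16734 genes. The Wald test of DESeq2 1.42.0 was the main alternative. All p-values are two-sided. Genes were joined by Ensembl identifier, and positions, exon lengths and coding sequences come from GENCODE vM21 (GRCm38, the build of mm10). CPM and RPKM use TMM-scaled library sizes, and RPKM the union of exons. That union includes bases shared with other genes, where reads were not counted, so the RPKM of such genes may be too low. In full are named Fmo5, the members called by edgeR or DESeq2 and Ppara; others are given by range, count or value, and some genes counted in the lists are not reported here by name. Nothing in the labels gives litters or batches, so p-values measure the spread between these 6 mice. Intervals are 95% confidence intervals, and those of counts cover counting error only. Those of log2 fold changes are approximate, from the SE derived from the F statistic and a t quantile. The steps were tested on simulated data.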

Additional observations from a re-analysis of the deposited data

How the results depend on the processing

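The number of members called lower, 1 in the edgeR test, was 9 with DESeq2, 2 with RLE factors and 9 with no filter on low counts; the 9 of the unfiltered fit include Pex7 and Scp2 in place of Pex2 and Lonp2. It was between 0 and 3 when each mouse was left out, with 0 without Fmo5-/- replicate 1 and 3 (Pex11a, Hsd17b4 and Nudt12) without WT replicate 3, and 1 in the other settings tried. No setting called a member higher. Over all genes, DESeq2 gave 528 lower and 216 higher, and RLE factors 89 and 46 of 16734 tested. With no filter on low counts they were 704 and 277 of 34200 tested. Without WT replicate 3 they were 75 and 28 of 17091 tested. The class medians kept their sign in every setting, between -0.22 and -0.12 for the peroxins and between -0.26 and -0.13 for the matrix oxidation enzymes, and their difference ran from -0.0016, where the genes under 500 were dropped ahead of the fit, to 0.04. There the median of all genes with a mean of 500 or more was 0.0016 in place of -0.06, and the class medians were -0.13 and -0.13. Over all genes, 83 were called lower and 43 higher, against 23 and 30 there, 107 and 152 without Fmo5-/- replicate 3, 26 and 26 without WT replicate 2, 28 and 27 without Fmo5-/- replicate 2 and 7 and 7 without Fmo5-/- replicate 1. With those genes dropped, Pex14 (0.020), Pex6 (0.045), Pex16 (0.013), Acaa1a (0.030) and Amacr (0.061) had log2 fold changes above 0, with the reads of 1 strand Pex10 (0.0003), Pex6 (0.0075) and Amacr (0.017) did, and without the 20 most abundant genes in the scaling Amacr (0.0023). With 1 mouse left out, the sign also changed for Pex14 (-0.13 to 0.0099), Pex10 (-0.17 to 0.050), Pex6 (-0.094 to 0.085), Pex26 (-0.13 to 0.37), Acaa1a (-0.14 to 0.043), Amacr (-0.041 to 0.069), Abcd2 (-0.90 to 0.065), Nudt7 (-0.15 to 0.38) and Agps (-0.0072 to 0.12). None of these was called in any setting, and the cause was not tested. No paired analysis was possible because the labels give the mice no shared numbers. Hao2 and Dao are limited by depth.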

Other observations

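Pex26, Nudt7 and Abcd2 varied more between WT mice than the other tested members, with coefficients of variation of 28.3%, 36.5% and 64.0%, against at most 26.3% (Acaa1b). For Pex26 and Nudt7 the 2 highest of the 6 mice were WT replicate 2 (1855 and 34967 normalized counts) and Fmo5-/- replicate 3 (1974 and 34598). In Abcd2 the same 2 mice were the lowest, at 397 and 594. The labels give no property that these mice share.

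Among the 56 tested genes, of peroxisomes or linked to them, outside the 43, every Fmo5-/- mouse was below every WT mouse in 28 and above in 3. Of the 53 with a mean of 500 or more these were 28 and 2, where 21.9% and 9.39% of all such genes were below and above. The 3 genes, named after their values were seen, were Pxmp2, Far2 and Xdh, at log2 fold changes of 0.12, 0.48 and 0.23. None of the 3 passed in edgeR, where the adjusted p values were 0.380, 0.227 and 0.205, or in DESeq2. Far2 is the second enzyme that makes the fatty alcohols of ether lipids, and its relative Far1 was at 0.32 with overlap. With 1 mouse left out, Far1 ran from 0.10 to 0.48.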
